A study of Mus musculus with 4 samples.

Results

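The genes of the Wnt pathway were followed in mouse embryonic stem cells (ESCs) with and without knockdown of Ythdf2. The members were the 19 genes named as Wnt ligands, the 10 named as Frizzled receptors, and 28 listed genes for coreceptors, non-canonical and R-spondin receptors, ligand release, the β-catenin destruction complex, TCF/LEF factors, feedback targets and secreted inhibitors. All 57 were found among the 49997 genes of the deposited count table. Of these, 45 had enough reads to be tested and 12 had not.

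Wnt proteins are secreted, lipid-modified ligands that bind Frizzled receptors on the same or neighbouring cells. In the canonical arm a Frizzled and an LRP coreceptor halt the destruction complex, so that β-catenin builds up and turns on target genes through TCF/LEF factors, and several of those targets feed back to dampen the pathway. In the non-canonical arm ligands such as Wnt5a act through receptors such as Ror1, Ror2 and Ryk on cell polarity and calcium signalling without β-catenin. In ESCs canonical signalling favours self-renewal, in part by relieving the repression that Tcf7l1 imposes on pluripotency genes.

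RNA was sequenced from E14 mouse ESCs, an established pluripotent line, which per the study's methods carried a tdTomato reporter under a MERVL promoter and were grown with LIF. Both groups carried a lentiviral short hairpin RNA (shRNA) and were kept as stable lines under puromycin. The shScramble group (n = 2) expressed a scrambled control hairpin and the shYthdf2 group (n = 2) a hairpin against Ythdf2, whose protein binds m6A-modified transcripts and hastens their decay. The study's methods name a pair of Ythdf2 hairpins, and the labels do not say which was used here. The study describes the replicates as independent, but each group is a hairpin line, so hairpin and knockdown cannot be told apart. The libraries held 31113006 to 36422510 reads. The knockdown showed in the libraries themselves, with 3365 and 2760 Ythdf2 reads in shScramble against 1086 and 1082 in shYthdf2. Marker counts are by edgeR, where 3.91% of all genes tested passed in either direction. Pluripotency markers were high in all 4 libraries, and 1 of 10 fell, Tdgf1, a Nodal coreceptor (log2 fold change -0.47, edgeR adjusted p = 0.0411). By DESeq2 2 were lower, and 4 were lower at an unadjusted edgeR p under 0.05 (9.80% of all genes tested). They summed to 6795 and 6577 CPM (reads brought to a shared library size with TMM factors) in shScramble and 6403 and 5835 CPM in shYthdf2. The other cell states were checked by their markers. The summed level of the 2-cell-like markers was 40.3 and 65.0 CPM in shScramble and 93.1 and 264 CPM in shYthdf2, and 4 of 11 tested rose (Zscan4a, Usp17la, Usp17le and Gm4340). By DESeq2 4 were higher, and 10 were higher at an unadjusted edgeR p under 0.05 (11.0% of all genes tested). All 11 had a positive log2 fold change, with a median of 1.44. The neuroectoderm markers summed to 179 and 129 CPM in shScramble and 271 and 206 CPM in shYthdf2, and 2 of 8 tested rose (Sox3 and Nes). Of these 8, 2 were higher by DESeq2 and 3 at an unadjusted edgeR p under 0.05.

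Of the members tested 6 changed, 5 higher and 1 lower in shYthdf2 than in shScramble at an adjusted p under 0.05. The genes that rose were Wnt5a, the prototype non-canonical ligand, Ror1, a receptor tyrosine kinase for Wnt5a, Wls, the carrier that takes Wnt proteins to the cell surface, and Axin2 and Notum, feedback targets of β-catenin. The gene that fell was Sfrp1, a secreted inhibitor that binds Wnt proteins. The 6 made up 13.3% of the 45 members tested, and 3.91% of all 18341 genes tested passed in either direction (2.43% higher, 1.49% lower). The test was edgeR's quasi-likelihood test with Benjamini-Hochberg adjustment over all genes tested. By DESeq2 6 members were higher and 1 lower, where 9.77% of the genes it tested passed (5.55% higher, 4.22% lower). At an unadjusted edgeR p under 0.05 were 7 members higher and 3 lower, against 20.8% of all genes tested (11.0% higher, 9.80% lower). Levels differed without overlap between groups for 24 members (15 higher and 9 lower in shYthdf2), which is 53.3% of those tested, where 51.8% of all genes tested did so (26.2% higher, 25.5% lower). The median log2 fold change over the members tested was 0.06 and that of all genes tested was 0.00. Wnt5a, Ror1 and Wnt10a passed the filter on low counts only through their reads in shYthdf2, so the counts and medians over tested members are descriptions and not support.

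**Figure D1:**
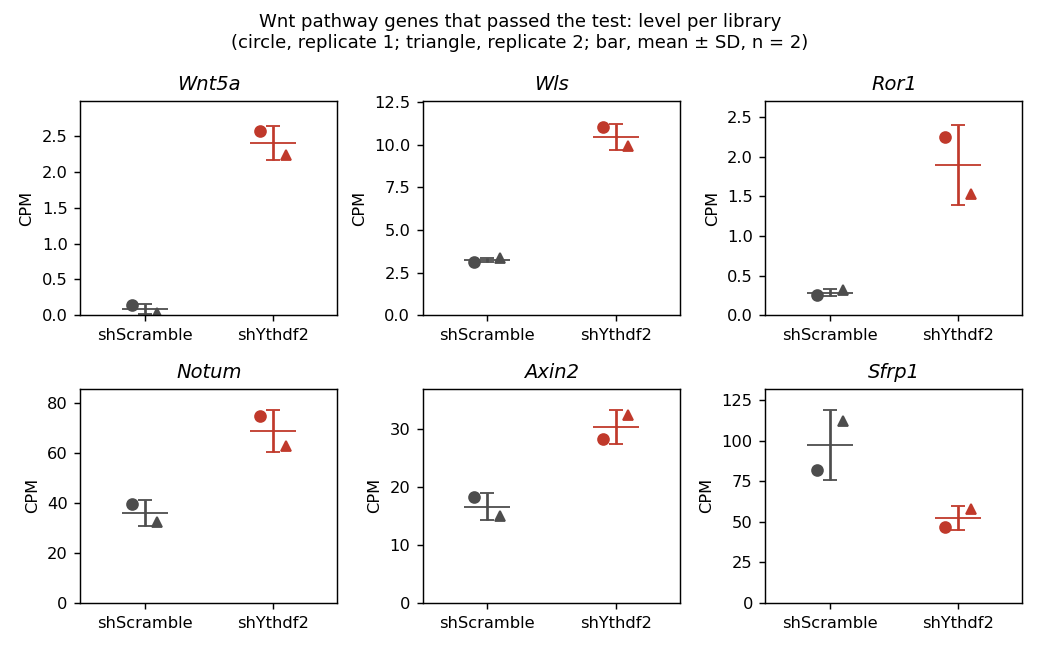
Level in CPM (vertical axis, from 0) of the 6 Wnt pathway genes that passed the test, in shScramble and shYthdf2 (horizontal axis), with a point per library and a bar for the mean ± SD (n = 2). In each panel the shScramble and shYthdf2 libraries are apart, with Sfrp1 lower and the other 5 genes higher in shYthdf2.

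Wnt5a lies on chromosome 14 (mm10, chr14:28504543-28527448, plus strand) and was close to silent in control cells. It had 5 and 1 reads in shScramble and 88 and 80 reads in shYthdf2. The shScramble libraries were near the 3-read limit of detection, which was 0.083 to 0.095 CPM, and both shYthdf2 libraries were far above it, without overlap. Scaled for library size this made 0.0853 ± 0.0757 CPM in the controls and 2.40 ± 0.239 CPM after knockdown (mean ± SD, n = 2). The ratio of the pooled reads, 168 against 6, was 27.0 with an exact 95% interval of 12.2 to 74.7. That interval takes each read as independent, but both reads of a pair were counted, so it is too narrow even for counting error. It also leaves out the spread between libraries. The fitted log2 fold change was 4.71 ± 0.61 (SE) with an edgeR adjusted p of 0.00520. Leaving out shScramble replicate 1 gave 6.09 and leaving out replicate 2 gave 4.08, so its size rests on few control reads. In bulk RNA a larger share of some cell type cannot be told apart from more RNA per cell.

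Ror1 (chr4:100095791-100444806, plus strand) was likewise near the floor in control cells. The reads numbered 9 and 10 in shScramble and 77 and 55 in shYthdf2, so that the lowest knockdown library lay above the highest control library. In CPM it stood at 0.284 ± 0.0477 in the controls and 1.89 ± 0.506 after knockdown (n = 2). The log2 fold change was 2.73 with an SE of 0.50 and an edgeR adjusted p of 0.0209. The pooled ratio, 132 against 19 reads, was 6.70 with an exact 95% interval of 4.13 to 11.5, too narrow for the same reason as that of Wnt5a.

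Wls, also called Wntless, is needed for release of nearly all Wnt ligands, canonical or not, and lies at chr3:159839650-159938666 on the plus strand. There were 113 and 105 reads in shScramble and 377 and 356 in shYthdf2. The replicates were close to each other and the groups far apart. In CPM it stood at 3.24 ± 0.138 in the controls and 10.5 ± 0.764 after knockdown, with a fitted log2 difference of 1.70 ± 0.23 (SE; edgeR adjusted p = 0.00660). Porcn, the acyltransferase that attaches the lipid to Wnt proteins, had 38.1 ± 0.568 CPM in shScramble and 45.6 ± 6.16 CPM in shYthdf2 and did not pass (log2 fold change 0.26, 95% interval -0.04 to 0.56).

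The β-catenin feedback targets Axin2 and Notum both lie on chromosome 11. Axin2 (chr11:108917828-108950783, plus strand), a scaffold of the destruction complex and a widely used readout of canonical signalling, had 658 and 473 reads in shScramble and 966 and 1162 in shYthdf2. Both knockdown libraries were above both controls, at 30.4 ± 2.98 against 16.6 ± 2.30 CPM, with a fitted log2 difference of 0.87 ± 0.16 (SE; edgeR adjusted p = 0.0233). Notum (chr11:120653788-120661193, minus strand), an extracellular enzyme that removes the lipid from Wnt proteins, had 1428 and 1020 reads in shScramble and 2557 and 2251 in shYthdf2. Its groups did not overlap either, at 36.0 ± 5.14 CPM in shScramble and 68.8 ± 8.41 CPM in shYthdf2, with a fitted log2 difference of 0.93 ± 0.14 (SE; edgeR adjusted p = 0.0108).

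Sfrp1 (chr8:23411383-23449632, plus strand) had 2955 and 3541 reads in shScramble and 1604 and 2068 in shYthdf2. Both knockdown libraries were below both controls, at 52.4 ± 7.68 against 97.2 ± 21.5 CPM. The log2 fold change was -0.89 ± 0.16 (SE; edgeR adjusted p = 0.0209). Sfrp2, a close relative, had 17.0 ± 0.0759 CPM in shScramble and 17.8 ± 1.77 CPM in shYthdf2 (log2 fold change 0.07, 95% interval -0.29 to 0.44). Dkk1, an inhibitor of the LRP coreceptors and itself a β-catenin target, had 0 reads in both shScramble libraries and 8 and 14 in shYthdf2, too few to be tested. Its mean level in shYthdf2 was 3.50 times a floor of 3 reads per control library, which is 0.0893 CPM. The shYthdf2 libraries had 0.234 and 0.391 CPM.

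The exons of none of these 6 genes overlap those of another gene in the table, so no listed antisense gene shares their exons where strand was ignored.

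Promoter sequence from RefSeq (GRCm38.p6) was at hand for 40 of the 57 members, among them Axin2, Ror1 and Wls of the genes that changed. Their 250 bases before the RefSeq start are shown because these 3 genes rose together, at chr11:108920099-108920348, chr4:100095541-100095790 and chr3:159839400-159839649, all on the plus strand. The Axin2 stretch is intronic in a longer model of that gene. Capitals mark the GC box word GGGCGG.
Axin2: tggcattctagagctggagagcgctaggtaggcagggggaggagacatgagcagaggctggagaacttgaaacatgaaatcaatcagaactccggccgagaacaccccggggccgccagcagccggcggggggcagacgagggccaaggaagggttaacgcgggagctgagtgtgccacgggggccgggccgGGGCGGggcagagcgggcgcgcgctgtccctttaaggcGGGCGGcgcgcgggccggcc
Ror1: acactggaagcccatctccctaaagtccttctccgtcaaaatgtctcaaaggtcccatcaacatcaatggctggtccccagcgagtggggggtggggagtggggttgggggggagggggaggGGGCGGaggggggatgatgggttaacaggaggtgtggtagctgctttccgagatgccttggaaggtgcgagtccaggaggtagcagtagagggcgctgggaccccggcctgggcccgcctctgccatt
Wls: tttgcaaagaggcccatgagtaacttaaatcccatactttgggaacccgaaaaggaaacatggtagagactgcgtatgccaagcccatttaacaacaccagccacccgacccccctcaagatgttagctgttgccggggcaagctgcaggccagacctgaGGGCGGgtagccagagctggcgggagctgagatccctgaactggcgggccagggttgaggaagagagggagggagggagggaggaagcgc
The GC box was found 2 times in the Axin2 stretch and 1 time in each of the other two, with both strands searched. Binding words of TCF/LEF factors were in none of the 3. The words were CTTTGAA and its relative CTTTGAT, and besides them the word CTTTGTA and its relative CTTTGTT. Over the members with an entry, 28 of 40 genes (70.0%) had a GC box, and 35.4% of all 27025 genes with an entry had one. A TCF/LEF word was in 8 of the 40 (20.0%) and in 16.8% of all genes. The median GC content of the stretches was 65.8% for members and 52.4% for all. Wnt5a, Notum and Sfrp1 have no entry.

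The ligands were low in these cells. Levels are compared between genes as TPM, the reads per base of exon scaled to 1 common total per library. Of 14 canonical ligands, 7 were tested, and 0 passed by edgeR or DESeq2 or reached an unadjusted edgeR p under 0.05. Wnt3a, the ligand most used to hold ESCs in self-renewal, had 65 and 73 reads in shScramble and 41 and 52 in shYthdf2, a log2 fold change of -0.63 (edgeR adjusted p = 0.376). The groups of Wnt3a did not overlap, but the 95% interval of -1.47 to 0.20 included 0. Wnt8a, known from the early embryonic axis, had 35 and 9 reads in shScramble and 69 and 41 in shYthdf2. Its groups did not overlap, but its controls lay farther from each other than the groups did at their nearest, and the log2 fold change of 1.31 had an edgeR adjusted p of 0.244. Leaving out shScramble replicate 1 gave 2.45 (edgeR adjusted p = 0.0205) and leaving out replicate 2 gave 0.70, and its adjusted p ran from 0.0205 to 0.690 over 13 other settings. Wnt6 had 22 and 24 reads in shScramble and 50 and 45 in shYthdf2, not overlapping, with a log2 fold change of 0.99 (edgeR adjusted p = 0.249).

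The remaining canonical ligands showed smaller differences or very few reads. Wnt7b had 42 and 61 reads in shScramble and 57 and 62 in shYthdf2, and Wnt9a had 40 and 41 against 29 and 41. For Wnt2b the reads were 27 and 11 in shScramble and 19 and 31 in shYthdf2, and 40.7% of its exon length is shared with the exons of St7l. Wnt10a had 13 and 0 against 21 and 12. None of these differences passed. The other 7 were under the filter, in the order shScramble replicates then shYthdf2 replicates. Wnt3 had 10, 2, 6 and 8 reads, Wnt8b had 5, 2, 15 and 8, and Wnt2 had 0, 0, 4 and 0. Wnt7a and Wnt10b each had 0 reads in both controls and 2 in each knockdown library, Wnt9b had 2, 0, 2 and 0, and Wnt1, a founding member of the family, had 0 reads in all 4.

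Among the non-canonical ligands Wnt5b was the most abundant, at 2.76 ± 0.471 TPM in shScramble and 4.02 ± 0.0309 TPM in shYthdf2. It had 128 and 85 reads in shScramble and 166 and 160 in shYthdf2. Its groups did not overlap, but the difference did not pass (log2 fold change 0.57, edgeR adjusted p = 0.286). Wnt5a rose to 0.716 ± 0.0241 TPM, still below Wnt5b per length. Wnt11, a ligand of convergent extension, had 18 and 10 reads in shScramble and 16 and 30 in shYthdf2. Wnt4 stayed under the filter with 4 and 8 reads in shScramble and 6 in each shYthdf2 library. Wnt16, placed in neither arm here, had 0 and 2 reads in shScramble and 8 and 9 in shYthdf2, also under the filter.

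The arms were then compared by the summed level of their ligands. The 14 canonical ligands came to 7.25 and 7.08 CPM in shScramble and 9.27 and 8.49 CPM in shYthdf2, a log2 ratio of the means of 0.31. For the 4 non-canonical ligands the sums were 4.30 and 3.30 CPM in shScramble and 8.07 and 7.71 CPM in shYthdf2, a log2 ratio of 1.05. Neither arm overlapped between groups, and with 2 libraries a side an exact permutation test cannot go below p = 0.333, so no test was made. The log2 ratio of the non-canonical arm was 0.56 with Wnt5a left out, a choice made after the values were seen, and 1.26 without shScramble replicate 1.

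The non-canonical share of all ligand reads of both arms, in CPM, was 37.3% and 31.8% in shScramble and 46.5% and 47.6% in shYthdf2. Per length, in TPM, it was 34.4% and 31.8% in shScramble and 36.3% and 39.8% in shYthdf2. Both measures were higher in both knockdown libraries, and the gap between groups was narrower per length, where the long Wnt5a transcript weighs less. Wnt5a alone took 0.399% and 0.110% of the ligand level per length in shScramble and 5.13% and 5.03% in shYthdf2.

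**Figure D2:**
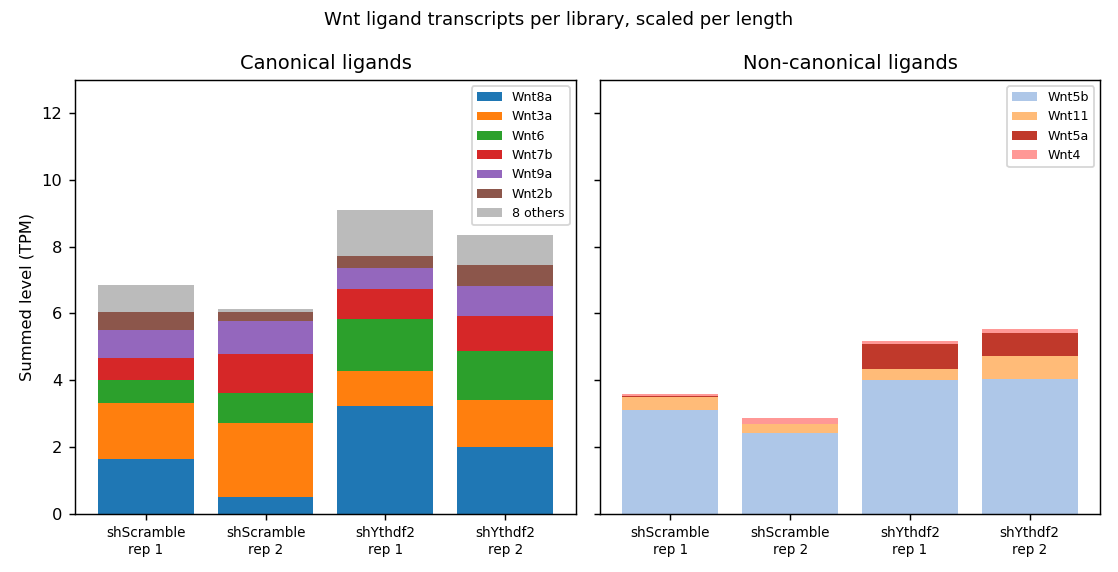
Summed level per length (TPM, vertical axis from 0) of the canonical ligands (left panel) and the non-canonical ligands (right panel) in each of the 4 libraries, stacked by gene, with Wnt5a in red. The canonical sum was 6.86 and 6.15 TPM in shScramble and 9.09 and 8.36 TPM in shYthdf2, and the non-canonical sum was 3.60 and 2.87 TPM against 5.19 and 5.53 TPM.

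Of the 10 Frizzled receptors all were tested, and 0 passed by edgeR or DESeq2. At an unadjusted edgeR p under 0.05 there was 1 (10%, against 20.8% of all genes tested). Fzd5 was the highest per length, at 101 ± 11.5 TPM in shScramble and 91.9 ± 9.01 TPM in shYthdf2, followed by Fzd7 at 37.3 ± 6.23 and 32.2 ± 9.24 TPM and Fzd10 at 25.4 ± 3.04 and 24.3 ± 1.10 TPM. Each of these 3 overlapped between groups. Fzd1 was the lowest, at 0.684 ± 0.255 TPM in shScramble and 1.55 ± 0.591 TPM in shYthdf2. It had 31 and 45 reads in shScramble and 70 and 116 in shYthdf2, not overlapping, with a fitted log2 difference of 1.21 ± 0.41 (SE; edgeR adjusted p = 0.134). Fzd1 was under the threshold in 3 of 13 other settings, over which its adjusted p ran from 0.00934 to 0.358. Log2 fold changes of the other 9 lay between -0.36 (Fzd3) and 0.26 (Fzd2).

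The canonical coreceptors Lrp5 and Lrp6, which join Frizzled at the membrane, did not pass. Lrp6 had 3893 and 3351 reads in shScramble and 2611 and 3501 in shYthdf2, and at 106 to 108 CPM against 76.4 and 97.8 CPM its groups did not overlap (log2 fold change -0.30 ± 0.13 SE, edgeR adjusted p = 0.227). The difference rested on shYthdf2 replicate 1, without which the log2 fold change was -0.13. Lrp5 had 74.0 ± 7.83 CPM in shScramble and 68.8 ± 7.33 CPM in shYthdf2.

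Per length Ror1 was by far the least of the non-canonical receptors, at 0.0682 ± 0.0131 TPM in shScramble and 0.439 ± 0.0891 TPM in shYthdf2. Ror2, its paralog, stood at 31.4 ± 3.32 TPM in shScramble and 32.1 ± 2.17 TPM in shYthdf2, and Ryk at 57.0 ± 0.360 and 54.4 ± 0.899 TPM. Neither passed, with log2 fold changes of 0.07 (95% interval -0.20 to 0.33) for Ror2 and -0.03 (-0.28 to 0.22) for Ryk. The rise of Ror1 thus left it far below both of the other receptors of its arm. Of the R-spondin receptors, which sustain Wnt signals at the membrane, Lgr4 had 35.7 ± 2.00 TPM in shScramble and 41.4 ± 6.52 TPM in shYthdf2 (log2 fold change 0.24, edgeR adjusted p = 0.282), and Lgr5 had 8 and 3 reads against 6 and 0.

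**Figure D3:**
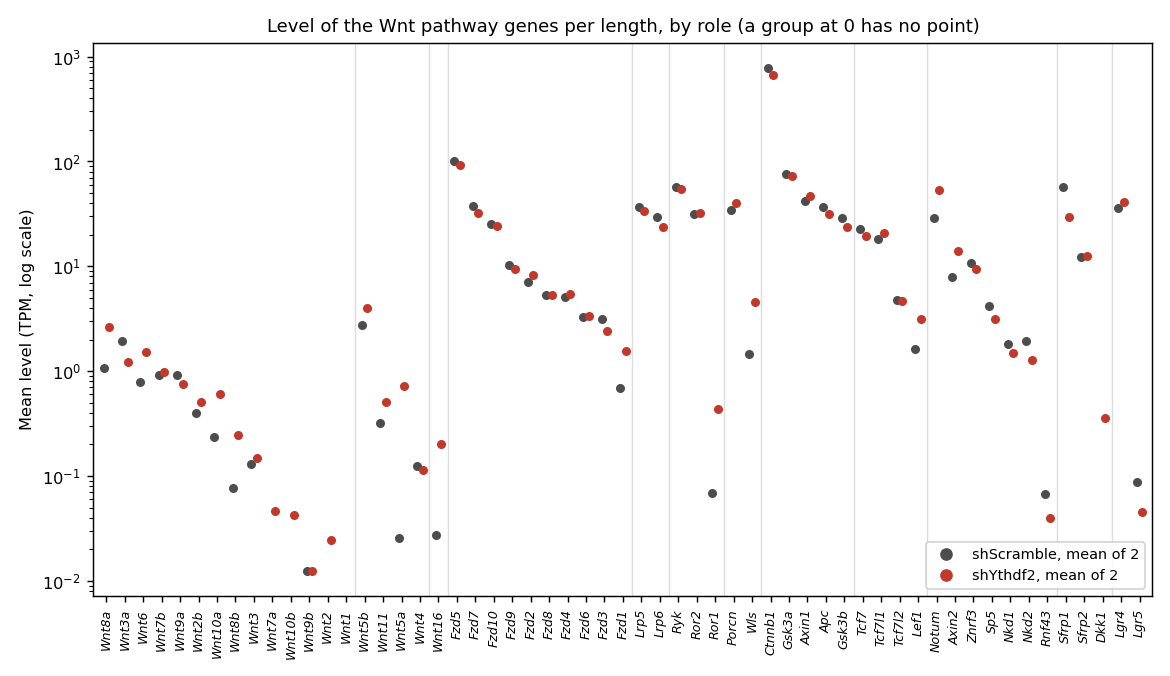
Mean level per length (TPM, log scale on the vertical axis) of the members, grouped by role along the horizontal axis, in shScramble and shYthdf2 (mean of 2 libraries each). Ctnnb1 is the highest and the ligands lie low, and a group listed at 0 has no point.

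The destruction complex and its substrate were expressed throughout, and 0 of 5 passed by edgeR or DESeq2. At an unadjusted edgeR p under 0.05 there was 1 (20%, against 20.8% of all genes tested). Ctnnb1, which encodes β-catenin, was the most abundant member, at 781 ± 5.70 TPM in shScramble and 670 ± 52.6 TPM in shYthdf2 (log2 fold change -0.19, edgeR adjusted p = 0.320). Gsk3b, a kinase that marks β-catenin for decay, had 93.6 ± 0.337 CPM in shScramble and 79.5 ± 2.24 CPM in shYthdf2, not overlapping, with a fitted log2 difference of -0.24 ± 0.10 (SE; edgeR adjusted p = 0.236). Its paralog Gsk3a had 65.7 ± 4.73 and 64.8 ± 3.31 CPM. The scaffolds Axin1 and Apc had log2 fold changes of 0.21 and -0.19 with edgeR adjusted p-values that missed the threshold, and per length Gsk3b was the lowest of the role in shScramble, at 28.6 ± 0.574 TPM.

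Of the TCF/LEF factors, which carry β-catenin to its target genes, 0 of 4 passed by edgeR and 1 by DESeq2, where 9.77% of all genes passed by DESeq2. At an unadjusted edgeR p under 0.05 there was 1 (25%, against 20.8% of all genes tested), Lef1 in both cases. Lef1, mostly an activator, had 102 and 89 reads in shScramble and 225 and 170 in shYthdf2. The control libraries were alike and both knockdown libraries higher, at 2.83 ± 0.00512 against 5.67 ± 1.29 CPM, with a fitted log2 difference of 1.00 ± 0.28 (SE; edgeR adjusted p = 0.0821). Its adjusted p ran from 0.00279 to 0.324 over 13 other settings and was under the threshold in 4, DESeq2 among them (DESeq2 adjusted p = 0.0485). Tcf7 was the most abundant per length over the 4 libraries, at 22.9 ± 0.631 TPM in shScramble and 19.6 ± 2.44 TPM in shYthdf2, close to Tcf7l1 at 18.1 ± 1.32 and 20.6 ± 0.944 TPM, and Lef1 was the least. Tcf7l1, the main repressor of the family in ESCs, had a log2 fold change of 0.22, and Tcf7l2 one of 0.02, and neither passed.

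The other feedback targets did not pass. Nkd1 and Nkd2, inhibitors of dishevelled, had 3.13 ± 0.123 and 3.03 ± 0.510 CPM in shScramble and 2.65 ± 0.672 and 2.00 ± 0.146 CPM in shYthdf2. Sp5, a transcription factor that represses TCF targets, had 142 and 88 reads in shScramble and 143 and 43 in shYthdf2, where the knockdown libraries spanned the controls. Without shYthdf2 replicate 1 its log2 fold change was -1.49 and without replicate 2 it was 0.31. Znrf3, a ubiquitin ligase that removes Frizzled receptors, had 31.7 ± 3.52 CPM in shScramble and 28.1 ± 1.70 CPM in shYthdf2, and its relative Rnf43 had 10 and 6 reads against 8 and 2. Per length Notum was the highest of the role, at 28.6 ± 3.41 TPM in shScramble and 53.2 ± 3.00 TPM in shYthdf2, and Rnf43 the lowest.

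**Figure D4:**
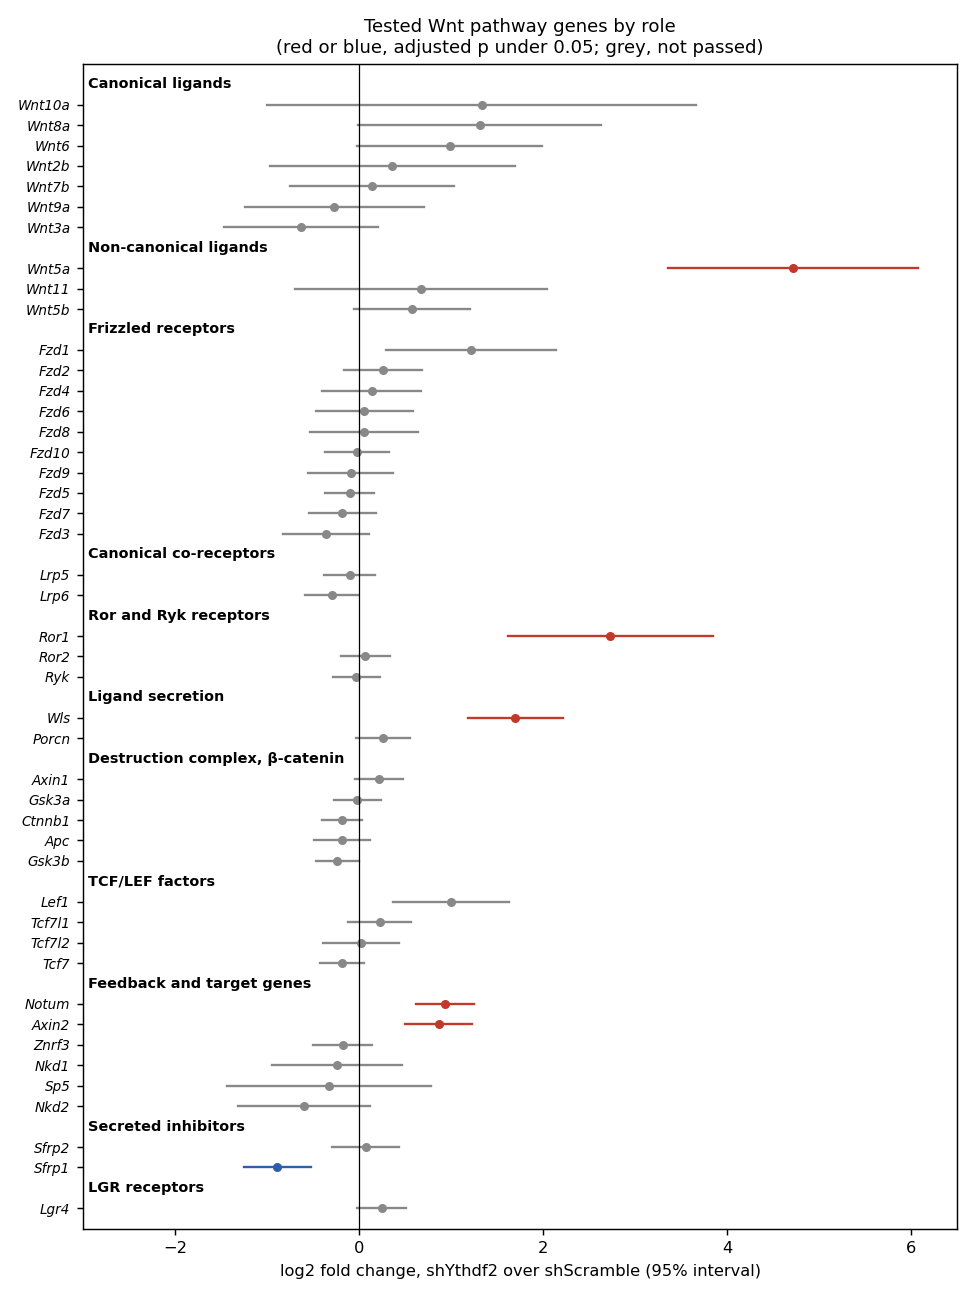
Log2 fold change (horizontal axis, shYthdf2 over shScramble, with 95% intervals) of the 45 members tested, grouped by role on the vertical axis, red or blue where the adjusted p was under 0.05 and grey otherwise. Wnt5a (4.71), Ror1 (2.73) and Wls (1.70) stand farthest to the right among those that passed, and Sfrp1 (-0.89) is the only one that passed to the left.

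By arm, the canonical arm (its ligands, coreceptors, destruction complex, TCF/LEF factors and feedback targets) had 24 of 32 genes tested, of which 2 rose and 0 fell (8.33%), with a median log2 fold change of -0.06. The non-canonical arm (its ligands and the receptors Ror1, Ror2 and Ryk) had 6 of 7 tested, of which 2 rose and 0 fell (33.3%), with a median of 0.62. The share of all genes tested was 3.91%. Wnt5a and Ror1, the 2 that rose in the non-canonical arm, entered the tested set only through their reads in shYthdf2, so these shares are counts only, and the difference between the arms was not tested.

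The other genes of the pathway were read in the same fit from 7 lists, beside 3.91% of all genes passing by edgeR, 9.77% by DESeq2 and 20.8% at an unadjusted edgeR p under 0.05. Of 15 planar cell polarity genes and 15 partners of dishevelled and the destruction complex tested, 0 passed in either list by edgeR, with 5 (33.3%) and 6 (40.0%) at an unadjusted edgeR p under 0.05, and 2 passed in each by DESeq2. At that unadjusted p, 4 polarity genes were higher and 1 lower, and 1 partner was higher and 5 lower. Over the polarity genes tested, 11 log2 fold changes were positive and 4 negative. By DESeq2 1 polarity gene was higher, Fuz (log2 fold change 0.59, DESeq2 adjusted p = 0.0498, edgeR adjusted p = 0.0949). The 1 lower was Prickle1, a cytoplasmic polarity protein (log2 fold change -0.86, DESeq2 adjusted p = 0.0122, edgeR adjusted p = 0.0581). Of 20 calcium and JNK genes 1 rose, Camk2b, a calcium-dependent kinase, from 1021 and 1070 reads in shScramble to 1651 and 1745 in shYthdf2 (log2 fold change 0.64, edgeR adjusted p = 0.0332). In that list 4 genes (20.0%) had an unadjusted edgeR p under 0.05 and 2 passed by DESeq2, Camk2b and Nfatc2, a calcium-dependent transcription factor (DESeq2 adjusted p = 0.0166, edgeR adjusted p = 0.0596). None of 15 nuclear cofactors passed by edgeR, with 6 (40.0%) at an unadjusted edgeR p under 0.05 and 3 passing by DESeq2.

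Of 12 other secreted or membrane modulators tested, 2 rose and 0 fell by edgeR (16.7%, against 3.91% of all genes), and 3 were higher and 1 lower at an unadjusted edgeR p under 0.05. By DESeq2 1 was higher, Gpc3, and Rspo2 was given no adjusted p. Gpc3, a glypican that holds Wnt ligands at the cell surface, had 506 and 566 reads in shScramble and 1202 and 1276 in shYthdf2, a fitted log2 difference of 1.15 ± 0.16 (SE; edgeR adjusted p = 0.00766). Rspo2, an R-spondin that sustains Wnt receptors, had 0 reads in both shScramble libraries and 40 and 12 in shYthdf2. Its mean level in shYthdf2 was 8.43 times a floor of 3 reads per control library, with unequal knockdown libraries. Rspo2 had an edgeR adjusted p of 0.0350 and passed the filter only through shYthdf2.

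Of 17 other TCF/β-catenin targets tested, 1 was higher and 0 lower by edgeR, 1 higher and 3 lower by DESeq2, and 3 higher and 4 lower at an unadjusted edgeR p under 0.05 (41.2%, against 20.8% of all genes). The gene that rose by edgeR was Ccnd1, which encodes the cell cycle protein cyclin D1, with 5859 and 4106 reads in shScramble and 9092 and 8404 in shYthdf2 (log2 fold change 0.77 ± 0.13 SE, edgeR adjusted p = 0.0155). The mesoderm target T had 54 and 94 reads in shScramble and 43 and 20 in shYthdf2, which did not pass (log2 fold change -1.30, edgeR adjusted p = 0.184). Cdx1, a caudal homeobox gene, had 131 and 258 reads in shScramble and 49 and 88 in shYthdf2. Its groups did not overlap, and its log2 fold change of -1.60 had an edgeR adjusted p of 0.0692 and a DESeq2 adjusted p of 0.00771.

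Of the 8 pluripotency genes held down by Tcf7l1, 0 were higher and 2 lower by edgeR, where 3.91% of all genes passed in either direction. By DESeq2 1 was higher and 3 lower, as at an unadjusted edgeR p under 0.05, with Klf2 (log2 fold change 0.50, DESeq2 adjusted p = 0.00823, edgeR adjusted p = 0.0716) the higher one by DESeq2. Tcl1, a cofactor of the AKT kinase, fell to 40.4 ± 0.904 CPM after knockdown from 74.6 ± 7.25 CPM in the controls (log2 fold change -0.88, edgeR adjusted p = 0.00660). Prdm14, a repressor that guards the pluripotent state, fell to 43.5 ± 3.53 CPM from 62.0 ± 3.85 CPM (log2 fold change -0.51, edgeR adjusted p = 0.0488).

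Markers of other cell types were read beside these genes, since Wnt5a and Ror1 are expressed in many differentiated tissues. Of 10 markers of fibroblasts, a cell type rich in Wnt5a, 4 had enough reads to be tested. None passed by edgeR or DESeq2, 1 had an unadjusted edgeR p under 0.05, and the summed level of the list was 22.4 and 28.7 CPM in shScramble and 12.9 and 22.6 CPM in shYthdf2. Only 2 of the 10 fibroblast markers, Twist2 and Dcn, had 0 reads in all 4 libraries. Mesoderm markers summed to 58.3 and 53.6 CPM in shScramble and 41.3 and 36.0 CPM in shYthdf2. By edgeR 1 of 7 tested fell, the growth factor gene Fgf17 (log2 fold change -0.96, edgeR adjusted p = 0.0132), where 3.91% of all genes passed in either direction. Primitive endoderm markers summed to 114 and 107 against 134 and 105 CPM, and trophectoderm markers to 107 and 113 against 135 and 103 CPM. The summed 2-cell-like and neuroectoderm markers were higher and the pluripotency and mesoderm markers lower in both knockdown libraries than in both controls. The part of these cell states in the changes of the Wnt genes was not tested. Between the knockdown libraries the 2-cell-like sum was 93.1 and 264 CPM, while, in the same order, Wnt5a was 2.57 and 2.24 CPM, Ror1 2.25 and 1.54 CPM, Wls 11.0 and 9.95 CPM, Notum 74.8 and 62.9 CPM, Axin2 28.3 and 32.5 CPM and Sfrp1 46.9 and 57.8 CPM.

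Because Ythdf2 protein reads m6A, the core m6A word GGACT was counted in the longest protein-coding transcript of each gene (GENCODE M21). The members held a median of 1.11 words per kb (n = 57) and all protein-coding genes 1.01 (n = 21801). Among the genes that changed, Wnt5a had 10 in 7010 bases (1.43 per kb), Ror1 1.21, Axin2 1.17, Wls 0.562, Sfrp1 0.457 and Notum 0.452 per kb. The genes that changed thus lay on both sides of the median, and a word match says nothing of whether the site is methylated.

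The 6 genes that passed did so in all 13 other settings of the test, among them 3 other scalings, 2 other filters, DESeq2, limma-voom, halved counts and each library left out. Under the study's criteria, which ask for a log2 fold change of at least 1 in size and an unadjusted DESeq2 p, Wnt5a, Ror1 and Wls passed with Dkk1, Fzd1 and Lef1, where 2.88% of all 30565 genes did. Axin2, Notum and Sfrp1 missed only the size that those criteria ask for.

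**Figure D5:**
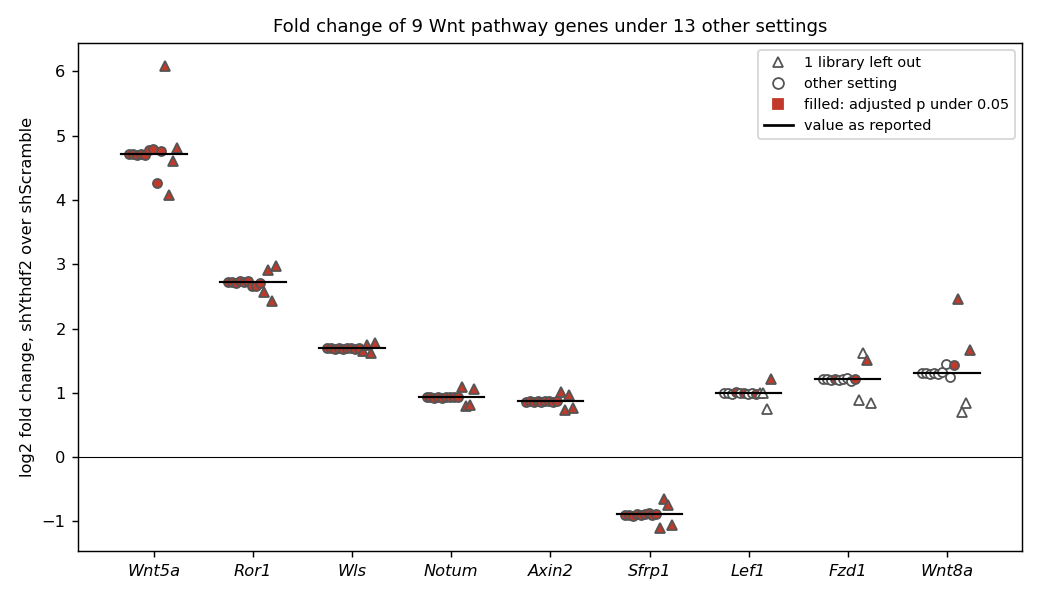
Log2 fold change (vertical axis, shYthdf2 over shScramble) of 9 Wnt pathway genes under 13 other settings, with triangles where 1 library was left out, circles for other settings, filled where the adjusted p was under 0.05, and a line at the value as reported. For the 6 genes that passed, all points are filled, and those of Wnt5a run from 4.08 to 6.09.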

How the data were processed

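The authors deposited a table of read counts by gene, raw and unpooled, with a column for each of the 4 libraries. Per the file headers they were made with featureCounts 2.0.3 over RefSeq exons of mm10, and the submitters' processing notes name fastp 0.19.4 and HISAT2 2.2.1. RNA was poly(A)-selected and stranded, but counting ignored strand, so overlapping antisense genes were not separated, and reads rather than pairs were counted, which doubles most counts without adding molecules. Intervals of log2 fold changes came from the edgeR fit and take in the spread between libraries. The exact intervals of pooled read ratios and the floors leave that spread out, and those exact intervals are too narrow even for counting error.

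Counts were tested with edgeR's quasi-likelihood test (edgeR 4.0.16, R 4.3.3; TMM, filterByExpr with minimum count 10, two-sided, no covariate) on all genes, with Benjamini-Hochberg adjustment over the 18341 that passed the filter. DESeq2 1.42.0 and limma-voom (limma 3.58.1) were alternatives. The fitting script was tested on simulated data. TPM used the deposited exon length. Groups and replicate numbers came from the titles. Named were all members, in full where the adjusted p was under 0.05, and genes of the other pathway and marker lists that passed by edgeR. Prickle1, Fuz, Nfatc2, Klf2, Cdx1, T, Twist2 and Dcn were chosen after their values were seen. Members, lists and alternatives were chosen with earlier results of these data known. Motifs were searched in RefSeq promoter windows (GRCm38.p6).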

Additional observations from a re-analysis of the deposited data

How the results depend on the processing

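The 6 genes that passed kept their direction and stayed under the threshold in all 13 other settings of the test. The number of members higher in shYthdf2, 5 as reported, was 8 without a filter on low counts (Dkk1, Fzd1 and Lef1 added), 6 by DESeq2 and 5 to 7 with each library left out. The number lower, 1 as reported, was 0 under the study's criteria and 1 to 4 with each library left out, 2 without shYthdf2 replicate 1 (Sp5 added) and 4 without shYthdf2 replicate 2 (Apc, Fzd7 and Lrp6 added). The genes called among all tested numbered 718 as reported, 1938 without a filter, 1423 by DESeq2, 1284 and 834 without shScramble replicates 1 and 2, and 1164 and 2288 without shYthdf2 replicates 1 and 2. The genes tested numbered 18341 as reported, 30565 without a filter, 14565 by DESeq2 and 19408 to 19558 with each library left out. The log2 ratio of the summed non-canonical ligands was 0.56 without Wnt5a. With each library left out it ran from 0.88 to 1.26 (1.26 without shScramble replicate 1), and that of the canonical ligands from 0.25 to 0.37. Moving Wnt4 to the canonical arm and Wnt16 to the other gave 1.12 and 0.30.

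With the replicate number as a block, 8 of the 45 members tested were higher (Fzd1, Lef1 and Wnt8a added) and 2 lower (Lrp6 added). In that setting 3525 of all 18341 genes tested were called, against 718 as reported, so many more genes passed throughout. The libraries share only a number: the labels do not say that it marks a batch, and only 2 pairs exist. The deviations of same-numbered libraries from their group means correlated at 0.317 over 18341 genes and at 0.518 over the 45 members tested.

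Of the members that did not pass, 16 changed sign in at least 1 setting, none with an adjusted p under 0.05 there. With upper quartile scaling Tcf7l2 was at -0.00044. With each library left out, the log2 fold change ran from -0.074 to 1.02 for Wnt2b, -0.19 to 0.54 for Wnt7b, -0.071 to 0.32 for Fzd4, -0.24 to 0.045 for Fzd5, -0.21 to 0.38 for Fzd6, -0.43 to 0.025 for Fzd7, -0.21 to 0.37 for Fzd8 and -0.17 to 0.13 for Fzd10. It ran from -0.22 to 0.0071 for Lrp5, -0.014 to 0.15 for Ror2, -0.12 to 0.053 for Ryk, -0.41 to 0.0025 for Apc, -0.093 to 0.056 for Gsk3a, -0.061 to 0.092 for Tcf7l2, -1.49 to 0.31 for Sp5 and -0.034 to 0.17 for Sfrp2. The cause was not tested.

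Depth limits the 12 members under the filter, which the main test left out, though Dkk1 passed unfiltered and under the study's criteria. It also limits the size of the Wnt5a, Ror1 and Dkk1 changes, which rest on 0 to 19 control reads. With 2 libraries a group the spread of any gene is poorly known.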
